A study of Drosophila melanogaster with 7 samples.

Results

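v (vermilion), KFase (kynurenine formamidase) and y (yellow) are 3 pigment genes of Drosophila melanogaster whose transcripts were far more abundant in larval nervous systems with neuronal knockdown of ISWI than in controls. They were chosen by name from the authors' deposited table after their large fold changes in this comparison were known, and are 3 of the 2366 genes listed there. The fold changes, p-values and levels of the 3 genes are therefore given as a description, without a test of their own.

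RNA was sequenced from central brains and ventral nerve cords dissected of larvae halfway through the third instar, raised for 4 days from egg lay at 25 °C. The elav-GAL4 driver, which is active in neurons, was present in both groups. The 3 control libraries carried no hairpin (genotype elav-GAL4; +), and the 4 knockdown libraries carried in addition a UAS hairpin that targets Iswi, which encodes the ATPase subunit of ISWI nucleosome remodellers. Each library pooled 40 brains, and the labels give no larval sex. The labels do not name the hairpin line or the site of its insert, while the column header of the authors' deposited table calls the control attp2, which is the name of a landing site for transgenes.

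Flies make their brown eye pigments, the ommochromes, from tryptophan. v encodes tryptophan dioxygenase, which opens the indole ring to give formylkynurenine. KFase removes the formyl group to give kynurenine, and cn (cinnabar), a kynurenine monooxygenase, then gives hydroxykynurenine, the precursor of the pigment. y encodes a secreted protein needed for black melanin in the cuticle and is not part of the tryptophan pathway. v and y are also widely used as visible markers in fly strains. In a large public collection of hairpin lines, those with inserts at the attP2 site carry wild-type copies of both genes as markers. The labels do not say whether the knockdown, the control or both carried such copies here. With 1 genotype in each group, a difference between the stocks in alleles or copies of a gene cannot be told apart from an effect of the knockdown.

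Values per library were not used here. The authors' deposited table gives for each gene the mean normalised count over all libraries, the log2 fold change of knockdown over control and its p-value, for genes with p under 0.1. Its adjusted p-values imply 10775 tested genes. Of these, 501 had an adjusted p under 0.05 in the authors' deposited table and are called here (4.65%), 222 of them higher (2.06%) and 279 lower (2.59%). Iswi itself fell by 2.03 (log2) per the authors' deposited table, which leaves 24.6% of its level in controls. Control and knockdown levels below were worked out from the mean count and the fold change, as normalised counts per library. Their ranges hold the mean count fixed and move the fold change to the ends of its 95% interval. The error of the mean count is left out. Where a gene rises steeply, most of that count comes from the knockdown. Knockdown ranges are then narrow by construction and do not give the precision of those levels. Standard errors are those implied by the deposited p-values.

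v had the largest rise of the 3 genes. It lies on the X chromosome (FBgn0003965, 10923972 to 10925631, plus strand, build BDGP6) and has 1 annotated transcript of 6 exons, with 1137 coding bases for 379 residues. Its mean normalised count over the 7 libraries was 122 in the authors' deposited table. The level worked out for the controls was 4.30 (range 2.41 to 7.64) normalised counts per library, and for the knockdown 211 (209 to 212). Transcript of the first enzyme of the pathway was thus scarce in the controls, at about 12.9 normalised counts over the 3 libraries together. Per the authors' deposited table v rose by 5.62 log2 units (adjusted p 1.2e-35, DESeq2), or 49.1-fold (95% interval 27.3 to 88.1), and the implied standard error was 0.43 log2 units.

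KFase, the enzyme of the next step, rose with it. The gene lies on 2L (6487342 to 6488756, minus strand), and carries the identifier FBgn0031821 in the authors' deposited table and FBgn0287695 in the newer annotation, at the same position. Both of its 2 annotated transcripts have 2 exons and encode the same 300 residues. The mean normalised count was 224 in the authors' deposited table. The worked-out level was 17.3 (12.5 to 23.8) in the controls and 380 (375 to 383) in the knockdown. KFase was therefore present in the controls at a low level, and in the knockdown was the most abundant of the 3. The rise was 4.46 log2 units per the authors' deposited table (adjusted p 1.3e-69, DESeq2), or 22.0-fold (15.7 to 30.8), and the implied standard error was 0.25 log2 units.

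y, the melanin gene, had the smallest of the 3 rises. It lies near the tip of the X chromosome (FBgn0004034, 356509 to 361245, plus strand), with 1 transcript of 2 exons, an intron of 2699 bases and 541 codons. Its mean normalised count was 191 in the authors' deposited table. The worked-out level was 30.1 (23.3 to 38.7) in the controls and 311 (305 to 317) in the knockdown. Per the authors' deposited table y rose by 3.37 log2 units (adjusted p 3.3e-60, DESeq2), or 10.4-fold (7.89 to 13.6), and the implied standard error was 0.20 log2 units.

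All 3 were called higher, and each is among the 89 calls with a rise of 1 log2 unit or more per the authors' deposited table (0.826% of tested genes). Since the genes were chosen on this contrast, nothing is read from that count. By p-value KFase, y and v hold ranks 4, 5 and 8 in the authors' deposited table. The 95% intervals of the log2 fold changes of v (4.77 to 6.46) and KFase (3.98 to 4.94) overlap, while that of y (2.98 to 3.77) lies below both.

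Gene length counts exonic bases here, 1305 for v, 1363 for KFase and 2038 for y. For KFase that is the longer transcript, while the shorter has 1002. Levels per kb of this length allow genes to be compared. The controls had 3.30 normalised counts per kb for v, 12.7 for KFase and 14.8 for y. KFase and y were thus within 1.17 times of each other in the controls, and v stood 3.84 times below KFase. In the knockdown the levels per kb were 162 for v, 279 for KFase and 153 for y. v and y differed there by 1.06 times and KFase stood 1.72 times above v. Among the 2366 genes listed at p under 0.1, the control levels per kb of v, KFase and y lay at percentiles 7.65, 15.3 and 16.4, and their knockdown levels at percentiles 40.3, 54.8 and 39.0. The genes went from the low end of the listed genes to their middle. Since they were chosen for large rises, a climb was built in, and nothing is read from it. Control levels per kb spanned 4.47 times from v to y, while knockdown levels spanned 1.82 times from y to KFase. Together with CG15930 and the noncoding RNA CR43857, v was 1 of 3 called genes that had a worked-out level under 10 normalised counts in the controls and over 100 in the knockdown.

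**Figure D1:**
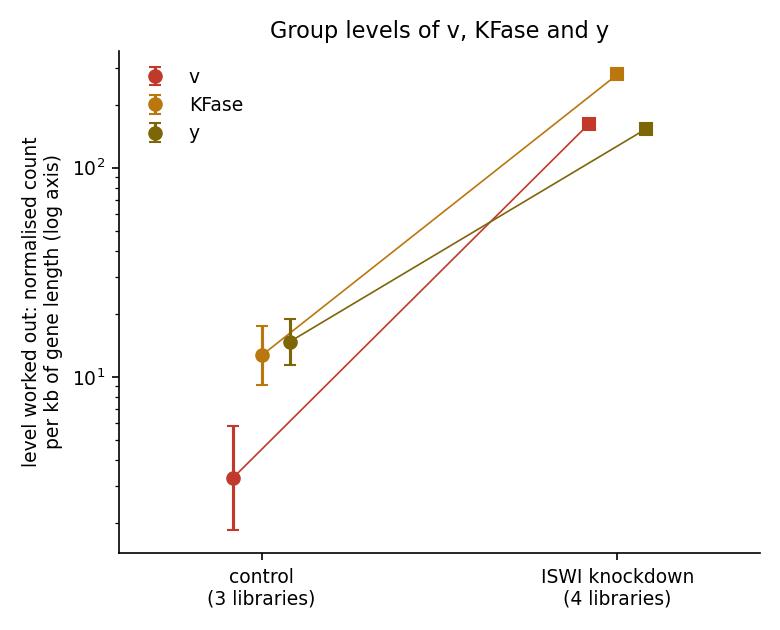
Worked-out levels of v, KFase and y in normalised counts per kb of gene length, exons only (log axis), in the control and the knockdown group. Bars show the level at the ends of the 95% interval of the fold change, with the mean count held fixed. They leave out the error of the mean count, so bars of the knockdown are narrow by construction. v starts at 3.30 in the controls, below KFase and y at 12.7 and 14.8, and the 3 genes lie between 153 and 279 in the knockdown.

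**Figure D2:**
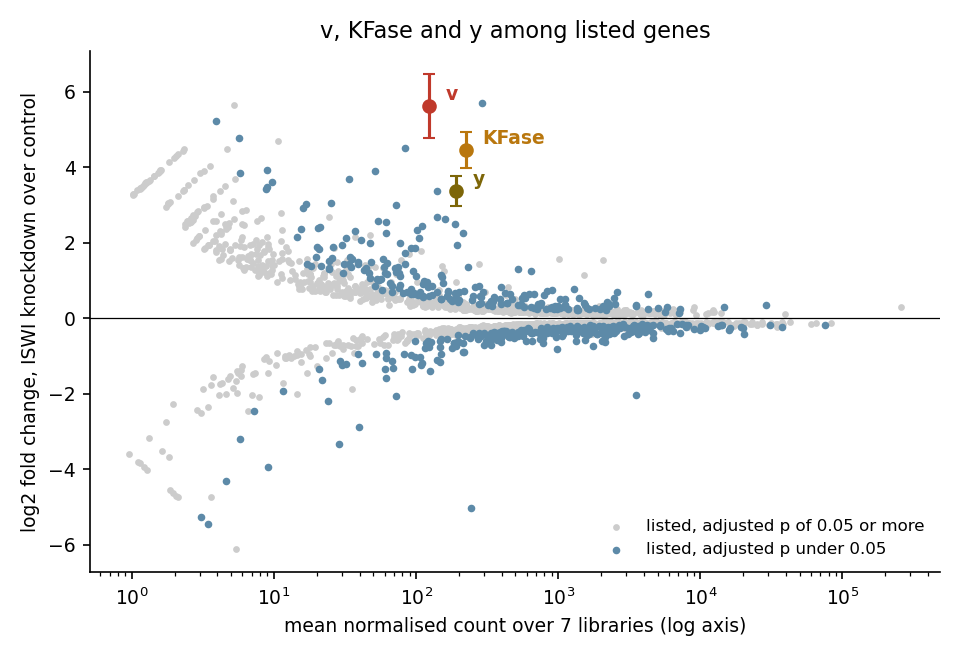
Log2 fold change of knockdown over control against the mean normalised count (log axis) for the 2366 genes that the authors' deposited table lists, with v, KFase and y marked and their 95% intervals. At mean counts of 122 to 224 the 3 genes, chosen for their large fold changes, stand above most listed genes of like abundance. Cyp4g1, with a mean count of 140 and a log2 fold change of 3.36, lies level with y.

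The low control counts also set the precision of these values. For v, counting error alone would give a standard error of 0.40 on the log2 scale, against the implied 0.43, so counting made up 88.0% of the squared error. For KFase the counting part was 0.20 of 0.25 (68.3% of the squared error), and for y 0.16 of 0.20 (61.6%). The median counting part over the 178 genes called higher with a mean count of at least 50 was 27.0%, and no gene among them had a larger counting part than v. Read as variation between libraries, what remained corresponds to 13.5% for v, 12.6% for KFase and 11.3% for y (coefficient of variation). The median for those 178 genes, which had all passed the call, was 10.7%. These figures treat normalised counts as counts and take the deposited p as that of a Wald test. They are worked back from the p of the DESeq2 model and are not a spread measured between the libraries.

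Genes with the most similar change were taken as the 2 calls nearest in log2 fold change to each of the 3 genes, at a mean count of at least 50, so that likeness rests on 1 comparison. For v they were CG15930 on the X chromosome, at 5.72 log2 units per the authors' deposited table, and CR43857 on 2L. CR43857 rose by 4.51 in the authors' deposited table, only 0.05 from KFase, and CG33465 on 2R was next at 3.91. For y the nearest was Cyp4g1, a cytochrome P450 that makes cuticular hydrocarbons, at 3.36 in the authors' deposited table, followed by the noncoding RNA CR45181 at 3.01. Cyp4g1 lies 106 kb from y on the X chromosome. Its implied standard error was 1.01, of which counting made up 3.29% of the square, against 61.6% for y at the same fold change. Most of the error of Cyp4g1 was thus not from counting, while CG15930, with a counting part of 86.4%, was close to v.

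**Figure D3:**
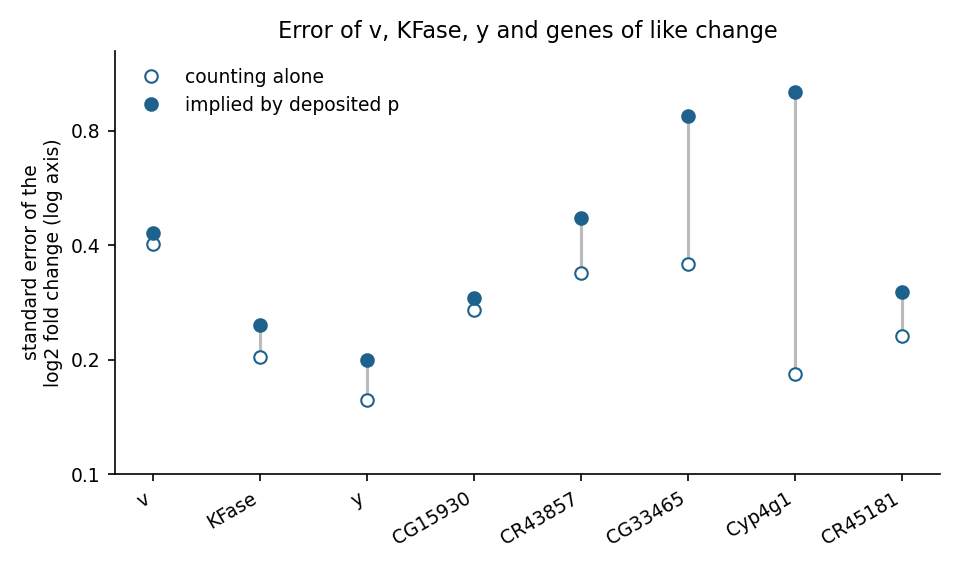
Standard error of the log2 fold change (log axis) for v, KFase, y and the 5 genes with the nearest fold changes; open points show what counting alone would give and filled points the error implied by the deposited p. The points nearly touch for v and CG15930 (88.0% and 86.4% of the squared error from counting) and lie far apart for Cyp4g1 (3.29%).

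The other steps of the tryptophan to ommochrome pathway were read from a list of 8 genes, 6 of them besides v and KFase. Of those 6, 0 were called in the authors' deposited table, whose tests come from DESeq2, beside 4.65% of all tested genes. At that share a count of 0 is what 6 genes would give, so nothing is read from it. Only 1 (cn) had an unadjusted p under 0.05. Per the authors' deposited table cn, which acts right after KFase, had a mean count of only 8.93 and a log2 fold change of 2.14 (adjusted p 0.16, implied standard error 0.86). Its worked-out levels were 3.02 normalised counts in the controls and 13.4 in the knockdown, and its 95% interval of 0.46 to 3.82 lies below those of v and KFase. Kyat (kynurenine aminotransferase), cd (cardinal), the ABC transporter genes w (white) and st (scarlet) and the transporter gene kar (karmoisin) were not among the listed genes. A gene that is not listed either had a p of at least 0.1 or was not tested, and its level is unknown here. Of 11 genes for other uses of tryptophan, among them Trhn (tryptophan hydroxylase), Hn (Henna) and Ddc (dopa decarboxylase), 0 were called in the DESeq2 comparison. This count too is near the 4.65% of all tested genes, and 0 of the 11 had an unadjusted p under 0.05. TrpRS-m, the mitochondrial tryptophanyl-tRNA synthetase, was the only one listed, at -0.15 (adjusted p 0.43) per the authors' deposited table.

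The red eye pigments are pteridines, made from GTP by a separate route. Of 14 genes of that route 0 were called higher and 1 lower, beside 2.06% and 2.59% of all tested genes, and how many of the 14 were tested is not known here. The lower one was DhpD (dihydropterin deaminase), which fell by 0.51 log2 units per the authors' deposited table (adjusted p 9.7e-06 with DESeq2, implied standard error 0.10). Its worked-out levels were 592 normalised counts in the controls and 415 in the knockdown. Another 5 of the 7 listed genes also had negative fold changes in the authors' deposited table without passing, among them Pu (GTP cyclohydrolase) at -0.26, Sptr (sepiapterin reductase) at -0.30 and Dhpr (dihydropteridine reductase) at -0.19 (adjusted p 0.23, 0.29 and 0.20). The seventh, bw (brown), the transporter partner of white for red pigment, had a log2 fold change of 1.55 (adjusted p 0.33) per the authors' deposited table, at a mean count of 7.68. The median over these 7 was -0.23, beside -0.10 over all 2366 listed genes.

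Pigment granules are organelles related to lysosomes, and 21 genes for delivery to them were examined. lt (light), a subunit of the HOPS tethering complex, was the only call of the 21, beside 4.65% of all tested genes. It fell by 0.47 log2 units per the authors' deposited table (adjusted p 3.1e-08 with DESeq2, implied standard error 0.07), from a worked-out 2538 to 1832 normalised counts. Rab32 (lightoid), a small GTPase of the granule, was listed at 0.50, and the BLOC-1 subunits Blos2 and Pldn at -0.38 and 0.29, with adjusted p from 0.18 to 0.29 in the authors' deposited table.

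For y the related genes are those of cuticle melanin and tanning and the yellow family. Of 14 other genes of cuticle pigment, among them ple (tyrosine hydroxylase), Ddc, e (ebony), b (black) and t (tan), 0 were called in the DESeq2 comparison. The share called among all tested genes was 4.65%, so nothing is read from that count. There were 2 with an unadjusted p under 0.05. These were PPO3, a prophenoloxidase of blood cells, at 1.03 and Pu at -0.26 per the authors' deposited table, where adjusted p were 0.20 and 0.23. amd, a gene of catecholamine metabolism, was listed at 0.90 (adjusted p 0.45) per the authors' deposited table. Of the 13 other yellow family genes 0 were called, again beside 4.65% of all tested genes. An unadjusted p under 0.05 was found for 2, namely yellow-d at 0.70 and yellow-h at 0.73 in the authors' deposited table (adjusted p 0.21 and 0.26, DESeq2). Both were low, with worked-out control levels of 27.6 and 23.2 normalised counts, close to the 30.1 of y, and knockdown levels of 44.8 and 38.5 against 311 for y.

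Among 11 genes whose alleles serve as visible markers of stocks, v and y were called. Of the other 9, 0 were called in the DESeq2 comparison, beside 4.65% of all tested genes, and 2 (cn and bw) had an unadjusted p under 0.05. sc (scute), w, sev (sevenless), ry (rosy), f (forked), st and e were not listed. Over all 7 lists together, 75 genes other than v, KFase and y were examined, and 0 were called higher and 2 lower (DhpD and lt), which is 2 of 75 beside 4.65% of all tested genes. The number of the 75 that were tested is not known here. At an unadjusted p under 0.05, 7 of them had positive and 6 negative fold changes per the authors' deposited table.

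**Figure D4:**
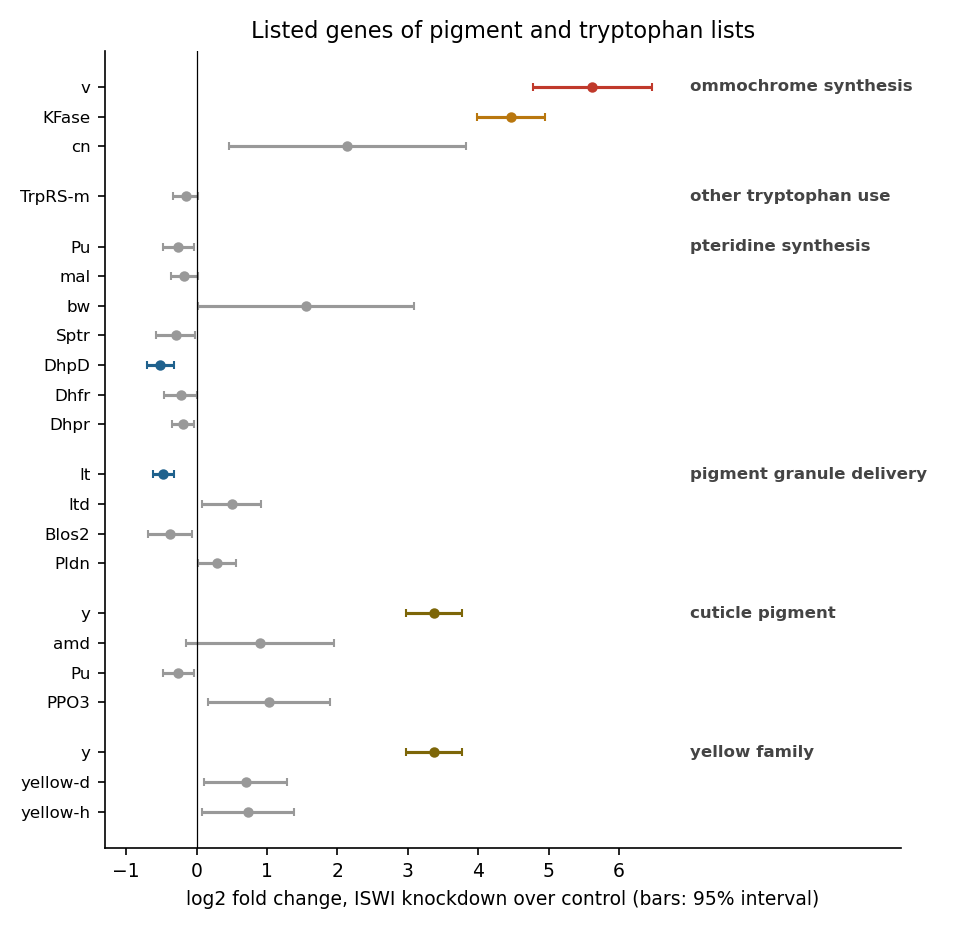
Log2 fold change of knockdown over control with its 95% interval for every listed gene of 6 pigment and tryptophan lists; blue marks other genes with an adjusted p under 0.05 and grey those at or above it, and Pu and y appear in 2 lists. v, KFase and y stand at 5.62, 4.46 and 3.37, the blue genes DhpD and lt lie below 0, and ltd is the label of Rab32.

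The position of the 3 genes was not used to choose them, so their neighbours were compared. Within 50 kb of either end of v, KFase or y the annotation holds 45 other genes, 36 of them protein-coding. Of the 45 genes 0 were called higher and 2 lower in the DESeq2 comparison, beside 2.06% and 2.59% of all tested genes. An unadjusted p under 0.05 was found for 1 with a positive and 4 with a negative fold change. Within 100 kb 0 of 81 genes were called higher and 3 lower, with 3 positive and 8 negative at an unadjusted p under 0.05. Just past that window, 106 kb from y, lies Cyp4g1, which was called higher at 3.36 in the authors' deposited table. Of the 45 genes 5 were listed, and how many of the others were tested is not known here. At the share called higher among all tested genes a count near 0 is what 45 genes would give, so nothing particular to these neighbourhoods is read from it.

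Around v, CG2145, whose start lies 3427 bases downstream of the start of v, was the only 1 of 14 genes listed, at -0.19 (adjusted p 0.21) per the authors' deposited table. The myosin gene Myo10A, 6868 bases from the start of v, was not listed.

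KFase starts 334 bases from the start of epsilonCOP, a coatomer subunit gene transcribed the other way, which was not listed. Daxx, the gene on its other side, runs into KFase on the opposite strand, and 235 of the 1363 exonic bases of KFase lie in Daxx exons. Daxx was not listed either, and the counting of reads by strand is not stated in the sources used here. CG31638, which starts 2305 bases upstream, fell by 0.22 in the authors' deposited table (adjusted p 0.016, DESeq2). Per the authors' deposited table the noncoding RNA CR45463 stood at 0.95 (adjusted p 0.30, mean count 16.1) and HemK1 at -0.26 (adjusted p 0.21), neither past the threshold.

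y lies within an intron of CG32816, which spans it on the opposite strand, and 0 of the exonic bases of y are shared with its exons. CG32816, the noncoding RNA yar, whose start lies 5890 bases downstream of that of y, and the proneural genes ac (achaete) and sc were not listed. l(1)sc (lethal of scute), a proneural gene of the same complex, was the only listed gene within 50 kb and fell by 0.49 in the authors' deposited table (adjusted p 0.0088, DESeq2). 

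**Figure D5:**
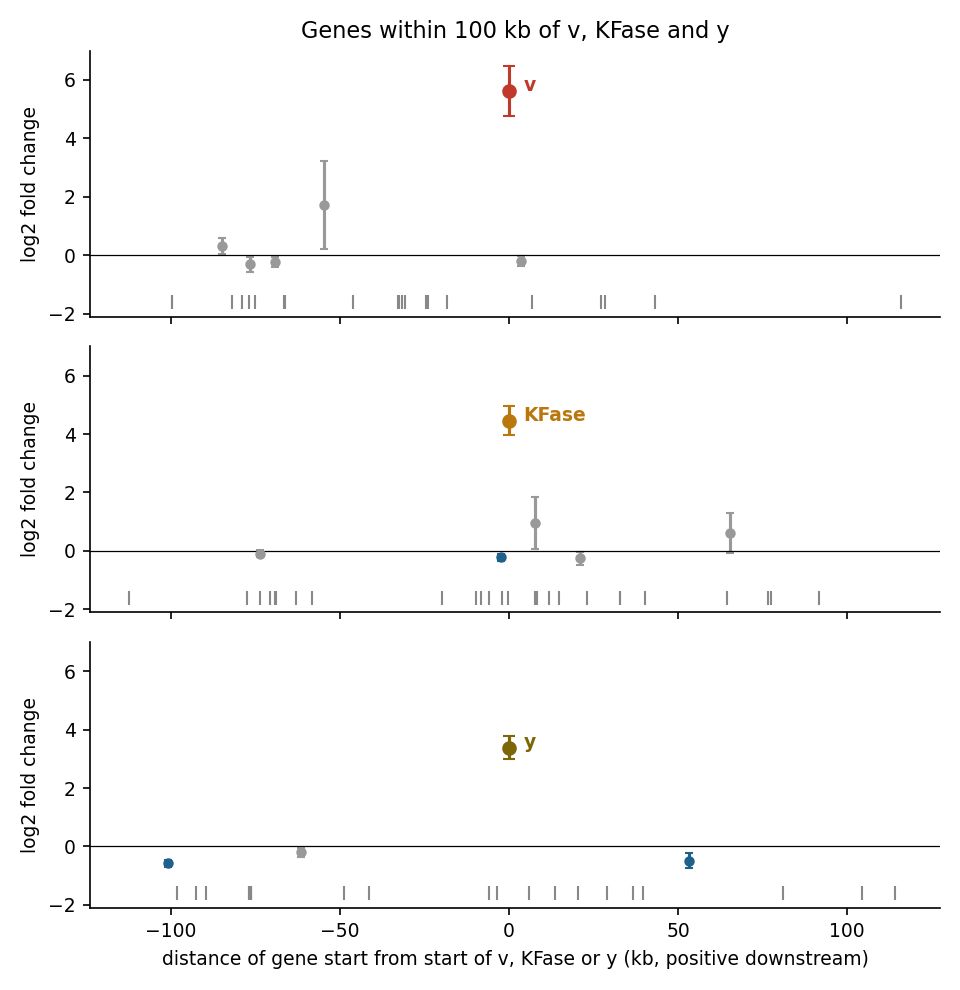
Log2 fold change of knockdown over control against the distance of each gene's start from the start of v, KFase or y (kb, positive downstream); points with 95% intervals are listed genes (blue for adjusted p under 0.05), and ticks at the bottom mark genes that are not listed and have no value. Each panel has 1 high point at distance 0, and no other called gene shown lies above 0. Cyp4g1, called higher and 106 kb from y, is outside the window.

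Tissues outside the nervous system also make these transcripts, so markers of such tissues were read beside them. In bulk RNA fewer cells of a type and less RNA per cell cannot be told apart. Of 9 larval fat body markers, 1 was listed (apolpp, log2 fold change 0.21, adjusted p 0.20), and of 20 epidermis and cuticle markers 1 (kkv, log2 fold change 0.52, adjusted p 0.43), per the authors' deposited table. Of 8 Malpighian tubule markers, Oatp58Db and ZnT35C were listed, at 2.57 and 1.91 (adjusted p 0.45 and 0.38) per the authors' deposited table, and mean counts of 2.49 and 5.79. Called genes numbered 0 in these 3 lists in the DESeq2 comparison, beside 4.65% of all tested genes, and at an unadjusted p under 0.05 there was only apolpp. How many of these markers were tested is not known here, so nothing is read from that count.

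Of 14 hemocyte markers 9 were listed, all with positive fold changes of 0.96 to 1.57, and 2 were called, NimC1 at 1.01 and Pxn at 1.25 in the authors' deposited table. Over all tested genes, 21.5% were listed and 2.06% called higher. The worked-out levels of the 9 listed markers, which are listed because their p was under 0.1, summed to 2141 normalised counts in the controls and 5870 in the knockdown. Most of that sum came from Hml (991 and 2877, adjusted p 0.17) and Nplp2 (479 and 1417, adjusted p 0.36), which were not called. Of 13 eye disc markers 7 were listed, 5 positive and 2 negative, with gl (glass) called higher at 0.94 and sca (scabrous) lower at -0.25 in the authors' deposited table. Among all tested genes 2.06% were called higher and 2.59% lower. The eye disc markers eya, sev, ninaE, chp, boss and dac were not listed. Whether RNA of the 7 listed ones came from eye disc or from the nervous system cannot be told in these libraries. The 7 summed to 3923 normalised counts in the controls and 3641 in the knockdown. That sum was dominated by the 2 negative ones, sca (1918 and 1609) and ey (1599 and 1419). The other 5, among them lz, which is also 1 of the 9 listed hemocyte markers, had higher worked-out levels in the knockdown. Of these 5, gl alone was called. These changes were smaller than those of v, KFase and y, which were chosen for their large rises, so nothing is read from the difference. What part the marker changes had in the rise of the 3 genes was not tested. Of the nervous system itself, the neural genes dpn, Rbp9, ChAT and Syx1A, picked after the table was seen, had mean counts of 844, 223, 1902 and 4728 in the authors' deposited table. Their log2 fold changes there were -0.19, 0.36, 0.13 and 0.18 per the authors' deposited table. Of the 4, 0 were called (DESeq2, 2 at an unadjusted p under 0.05), beside 4.65% of all tested genes. At that share a count of 0 is what 4 genes would give, and these 4 do not stand for neural genes at large, so nothing is read from it.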

How the data were processed

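Per the labels' protocols, 7 libraries (3 control, 4 knockdown) gave 100-base single reads. The submitters' processing notes name STAR 2.5.0b, the build BDGP6 and DESeq2. The values used are those the authors deposited: per the file headers, a mean normalised count over all libraries (a signal, the mean of counts divided by size factors), a log2 fold change, a p-value and an adjusted p-value. Depth per library is unknown, and no model was refitted.

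A gene was called at an adjusted p under 0.05. The number of tests came from p, rank and adjusted p. Implied standard errors take the p as that of a two-sided Wald test. Group levels solve the mean over 3 and 4 libraries for the deposited fold change. Of the listed genes 1.31% had an implied error below that of counting alone. The formulas were tested on simulated data with scipy 1.17.1. Ensembl's BDGP6 annotation gave neighbours and exons.

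The 3 genes, the lists and the rule for named genes were chosen with earlier results of these data known. The rule took the 3 genes, every called gene of the 7 pathway lists and up to 4 listed ones per list with the smallest p, listed neighbours within 50 kb, and the nearest fold changes.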

Additional observations from a re-analysis of the deposited data

How the results depend on the processing

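Of 37 alternative values, 18 could not differ from the value given (stricter limits on lists with 0 calls, and the error of an unchanged fold change) and say nothing of stability. Of the other 19, 13 kept their call or stayed within 1.5 times or 1 standard error, and 0 reversed. Among those 13 are the Bonferroni values of v, KFase and y, which remained under 0.05. For genes chosen with p-values this small that outcome was settled beforehand, and it too says nothing of stability. Equal weight on both groups put the control levels of v, KFase and y at 4.89, 19.5 and 33.6 normalised counts. The count of all called genes, 501, was 315 at an adjusted p under 0.01, 121 with a log2 fold change of at least 1 and, as an alternative chosen after seeing the data, 170 with Bonferroni adjustment. With that fold limit the pteridine and granule lists, which hold DhpD and lt, have 0 calls each. Called neighbours numbered 1 within 20 kb, where the 2 within 50 kb include l(1)sc. A t distribution on 5 degrees of freedom would shrink the error of v to 7.7e-08, below what counting allows, and was not used. No paired analysis was possible because values per library were not used here, and for the same reason no replicate was left out and no count model was run. The planned search for promoter motifs was not run. Control counts of v, about 12.9 over 3 libraries, limit how well its fold change is known.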

Other observations

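Within 100 kb of y, but outside the 50 kb used above, lies cin (cinnamon), a gene of molybdenum cofactor synthesis that is needed for the rosy enzyme and so for normal eye colour. It fell by 0.58 log2 units per the authors' deposited table (adjusted p 3.2e-15 with DESeq2, implied standard error 0.07). Its partner mal (maroon-like), which activates the same cofactor, had a log2 fold change of -0.17 (adjusted p 0.40) per the authors' deposited table. cin was in none of the lists and was singled out after its value was seen.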
